A study of Mus musculus with 6 samples.

Results

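The genes described are 5 members of the Reg lectin family (Reg1, Reg3a, Reg3b, Reg3g and Reg4) and 5 genes of antimicrobial defence in the crypt and its secretory cells (Lyz1, Ang4, Itln1, Retnlb and Mmp7). They were chosen by name, and every probe set whose platform annotation names 1 of these 10 genes alone was taken, which gave 14 of the 45101 probe sets on the array. RNA came from the jejunum (small intestine between duodenum and ileum) of 3 double knockout mice lacking TIS7 (Ifrd1) and SKMc15 (Ifrd2), called double knockout below, and of 3 wild type mice. All 6 were males on a C57BL/6 background, 7 to 10 weeks old by the labels, caged singly and fed a synthetic diet with 42% of its energy from saturated milk fat and 0.2% from cholesterol. Feeding lasted 3 to 8 weeks in the study, the RNA came from animals fed for 3, and each was measured on 1 Affymetrix mouse expression array. The labels do not say how either gene was disrupted, and a double knockout does not separate the part of Ifrd1 from that of Ifrd2.

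Reg proteins are small secreted proteins with a lectin fold. In the mouse small intestine Reg3g and Reg3b are made by enterocytes and Paneth cells and are released into the mucus, where Reg3g kills mainly Gram-positive bacteria, and their transcripts are known to depend on signals from microbes and on interleukin-22 acting through Stat3. Paneth cells sit at the crypt base and store lysozyme (Lyz1), the ribonuclease Ang4, intelectin (Itln1) and alpha-defensins in granules, and the protease Mmp7 cuts the alpha-defensin precursors into their active form. Retnlb encodes a resistin-like protein of goblet cells, best known from the colon and from worm infection.

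Reg1, Reg3a, Reg3b and Reg3g, which neighbour each other on chromosome 6, carry the findings below, because Reg3a was the member that differed between genotypes while Reg3b and Reg3g varied from mouse to mouse. Their RefSeq promoter windows (build GRCm38.p6, 300 bases each, ending just after the annotated start of transcription) are shown 5′ to 3′ on the gene's strand, with capitals for runs of at least 10 bases that also occur in another of the 4 windows. Reg3a is taken from chr6:78380459-78380758 (plus strand), Reg3b from chr6:78370635-78370934 (plus), Reg3g from chr6:78468825-78469124 (minus) and Reg1 from chr6:78425733-78426032 (plus).
Reg3a: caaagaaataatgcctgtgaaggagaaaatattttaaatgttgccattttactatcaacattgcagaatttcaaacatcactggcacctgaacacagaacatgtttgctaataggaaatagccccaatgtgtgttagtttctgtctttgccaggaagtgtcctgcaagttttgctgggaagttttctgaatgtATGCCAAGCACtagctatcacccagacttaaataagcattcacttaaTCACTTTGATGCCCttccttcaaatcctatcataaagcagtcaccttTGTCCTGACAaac
Reg3b: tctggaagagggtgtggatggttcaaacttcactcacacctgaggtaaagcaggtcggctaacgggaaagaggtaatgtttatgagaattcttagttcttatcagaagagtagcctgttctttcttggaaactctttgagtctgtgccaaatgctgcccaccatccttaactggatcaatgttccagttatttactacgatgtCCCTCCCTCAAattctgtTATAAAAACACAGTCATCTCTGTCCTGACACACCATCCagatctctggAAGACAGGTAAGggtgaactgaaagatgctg
Reg3g: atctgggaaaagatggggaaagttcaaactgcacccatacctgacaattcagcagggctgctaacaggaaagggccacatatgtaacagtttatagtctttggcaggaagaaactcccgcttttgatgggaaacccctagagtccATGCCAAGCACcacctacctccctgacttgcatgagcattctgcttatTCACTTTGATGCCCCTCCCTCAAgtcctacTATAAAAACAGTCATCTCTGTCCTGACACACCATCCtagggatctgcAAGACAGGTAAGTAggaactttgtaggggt
Reg1: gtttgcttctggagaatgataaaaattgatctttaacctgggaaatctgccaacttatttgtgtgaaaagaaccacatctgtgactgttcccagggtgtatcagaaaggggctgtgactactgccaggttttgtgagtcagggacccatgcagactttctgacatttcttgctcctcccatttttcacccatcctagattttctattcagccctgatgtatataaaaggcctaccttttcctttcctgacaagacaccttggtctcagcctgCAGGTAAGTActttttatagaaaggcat
Reg3b and Reg3g shared the longest run, 29 bases, and 71.4% of their aligned bases (210 of 294, gaps left out) were identical. Reg3a shared at most 14 bases with Reg3g (73.9% identity, 184 of 249) and 10 with Reg3b (68.3%, 168 of 246). The percentages thus rest on alignments of unlike length. Reg1 lay between 60.4% and 65.0% identity to the other windows. The letters TATAAA, the core of a TATA box, were found on the gene's strand 29 bases upstream of the start in Reg3b, 27 in Reg3g and 30 in Reg1, and were not in the Reg3a window. On either strand they occur in 13.6% of the 32851 windows in the table. CTTTGAT, a TCF/LEF-type element, was in the Reg3a and Reg3g windows (3.73% of all windows on either strand), and TTCNNNGAA, a STAT-type element, in the Reg3b window (8.30% of all windows). Of the other members, the Ang4 window held TTCNNNGAA and both Mmp7 windows held CTTTGAT, 1 of them with TATAAA as well. The Itln1, Lyz1 and Reg4 windows held none of these 3 elements; 9 of the 10 members matched the RefSeq table, all but Retnlb. These are matches of letters and show no binding.

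Levels are log2 values made by the authors with GCRMA, and a value under 4 is treated here as too dim to measure. Of 45037 probe sets that are not controls, 18013 lay above 4 on at least 3 arrays and were compared with limma, double knockout minus wild type, with p-values adjusted over all of them. Array medians ran from 2.87 to 2.90. All 16 measured enterocyte markers were bright. Of 10 ileum markers 7 were bright, while Fabp6, Slc10a2 and Fgf15 were under 4 on every array, so that list does not settle the region. Also under 4 on every array were 9 of 13 pancreatic acinar, 9 of 11 stomach and 6 of 10 colon markers. Ifrd2 lay between 2.59 and 2.74 in double knockout and between 8.20 and 8.61 in wild type jejunum, and Ifrd1 between 4.80 and 6.27 against 9.84 to 10.00. Which exons were deleted is not stated in the labels, and a probe set outside them would check nothing.

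Of the 14 member probe sets, 12 (9 genes) passed the filter on dim values. Reg3a alone fell in double knockout jejunum, 1 of these 12 probe sets, against 1.93% of all tested probe sets that were lower and 2.54% that were higher (4.47% in either direction). No member rose. The other 11 probe sets (8 genes) did not pass, with limma adjusted p-values from 0.252 to 0.988, and their groups overlapped. Fold changes were negative for 11 of the 12 and positive for 1, with a median of -0.17 on the log2 scale beside 0.03 over all tested probe sets. Probe sets of 1 gene are not independent of each other.

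**Figure D1:**
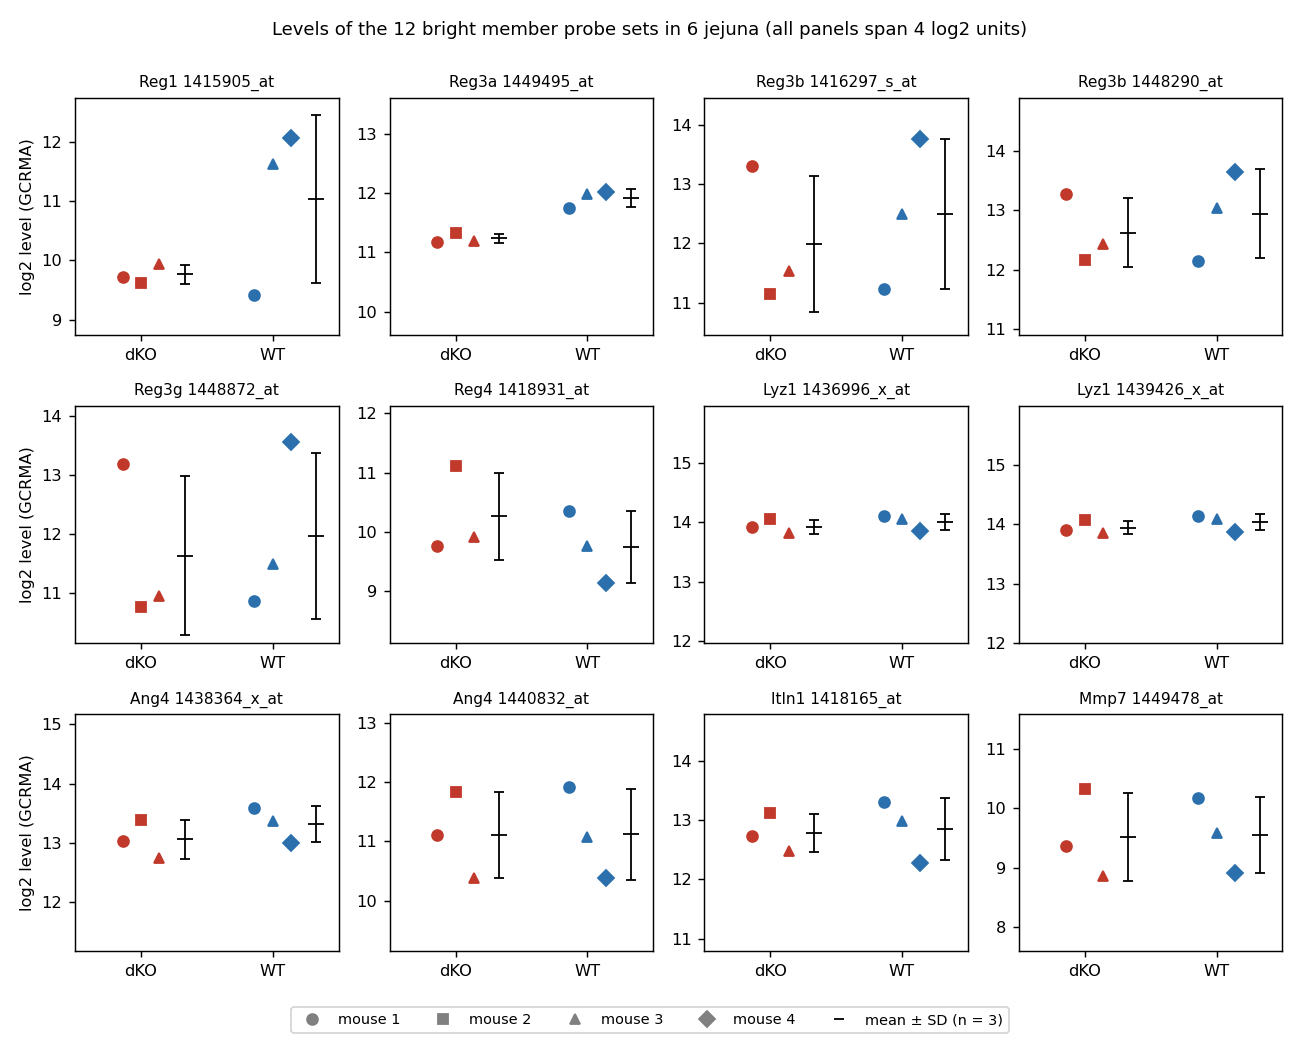
Levels of the 12 bright member probe sets (vertical axis, log2 GCRMA value, every panel spanning 4 units) in 3 double knockout (dKO, red, left) and 3 wild type (WT, blue, right) jejuna. Symbols give the mouse number and black bars the mean ± SD (n = 3). Reg3a is the panel in which the groups are separate (11.18 to 11.32 in dKO against 11.74 to 12.02 in WT).

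Reg3a encodes a lectin of the same subfamily as Reg3b and Reg3g. Its probe set (1449495_at) had levels of 11.18, 11.32 and 11.20 in double knockout mice 1, 2 and 3, against 11.74, 11.98 and 12.02 in wild type mice 1, 3 and 4. All 3 double knockout values lay below all 3 wild type values, which was the case for 14.8% of the tested probe sets (34.3% had groups that did not overlap in either direction). The means were 11.23 ± 0.08 and 11.91 ± 0.15 (SD, n = 3 each), a log2 difference of -0.68 ± 0.11 (SE; 95% interval -0.93 to -0.43; limma adjusted p = 0.0282). On the linear scale the level was 1.60-fold higher in wild type (interval 1.34 to 1.91). In bulk tissue, fewer cells of a type and less RNA per cell cannot be told apart.

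The size of the Reg3a difference moved little with the settings, between -0.77 and -0.63 when 1 mouse was left out, but the call needed almost every mouse. Without wild type mouse 1, 3 or 4 the limma adjusted p was 0.0589, 0.0702 and 0.110, and without double knockout mouse 1 or 3 it was 0.0704 and 0.0954. Only without double knockout mouse 2 did it stay under the threshold (0.0496). Calls over all tested probe sets also dropped when 1 mouse was left out. They went from 458 higher and 347 lower to between 11 and 196 higher and between 21 and 239 lower. Without wild type mouse 1 the Reg3a difference was larger (-0.77) and its unadjusted limma p was lower (0.00033 against 0.00044 as reported). Reg3a is bright, above 95.1% of tested probe sets in mean level, and its within-group SD of 0.12 was below the median of 0.15 over all tested probe sets.

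An RNA quality measure, the 3′ minus 5′ difference of the Actb and Gapdh control probe sets, was on average higher in double knockout mice. It was 0.60, 0.41 and 0.61 in the double knockout mice and 0.35, 0.49 and 0.36 in the wild type mice, a mean difference of 0.14 (exact two-sided permutation p = 0.2; the smallest that 3 against 3 allow is 0.1). With that measure as a covariate, the Reg3a difference was -0.66 ± 0.15 and no longer passed (limma adjusted p = 0.181). In that fit the calls over all tested probe sets fell from 458 higher and 347 lower to 5 and 12. The mean level of the 16 enterocyte markers was 13.02 to 13.08 in double knockout and 13.15 to 13.21 in wild type mice, a gap that was not tested. Of the 16, 1 fell (Treh, the trehalose-splitting enzyme, -0.74) and 15 did not pass, against 4.47% called over all tested probe sets. Differences were negative for 14 and positive for 2, with a median of -0.075 beside 0.03 over all tested probe sets. The part of RNA quality and of enterocyte share in the Reg3a result was not tested.

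Reg1, a secreted Reg protein known from the exocrine pancreas and from gut epithelium, had levels of 9.73, 9.63 and 9.95 in double knockout mice 1, 2 and 3, against 9.42, 11.62 and 12.06 in wild type mice 1, 3 and 4. The double knockout mice were close together and low, wild type mice 3 and 4 were high, and wild type mouse 1 was the lowest of all 6. The means were 9.77 ± 0.16 and 11.03 ± 1.41 (SD, n = 3 each), a log2 difference of -1.27 ± 0.64 with an interval of -2.79 to 0.26 (limma adjusted p = 0.252). Single mice moved this value: without wild type mouse 1 the difference was -2.07 ± 0.17 and passed (limma adjusted p = 0.0298), and without wild type mouse 4 it was -0.76 ± 0.61 (limma adjusted p = 0.531). Blocking on mouse number gave -0.69 ± 0.52. Of 13 pancreatic acinar markers, 9 were under 4 on all 6 arrays (Cpa1, Cpb1 and Prss2 among them) and 3 were bright. The bright ones were Cela1, an elastase, at 0.62 ± 0.13 (limma adjusted p = 0.0506), Rnase1 at -0.77 ± 0.39, and Zg16, which is also in the goblet cell list. Their part in the Reg1 values was not tested.

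**Figure D2:**
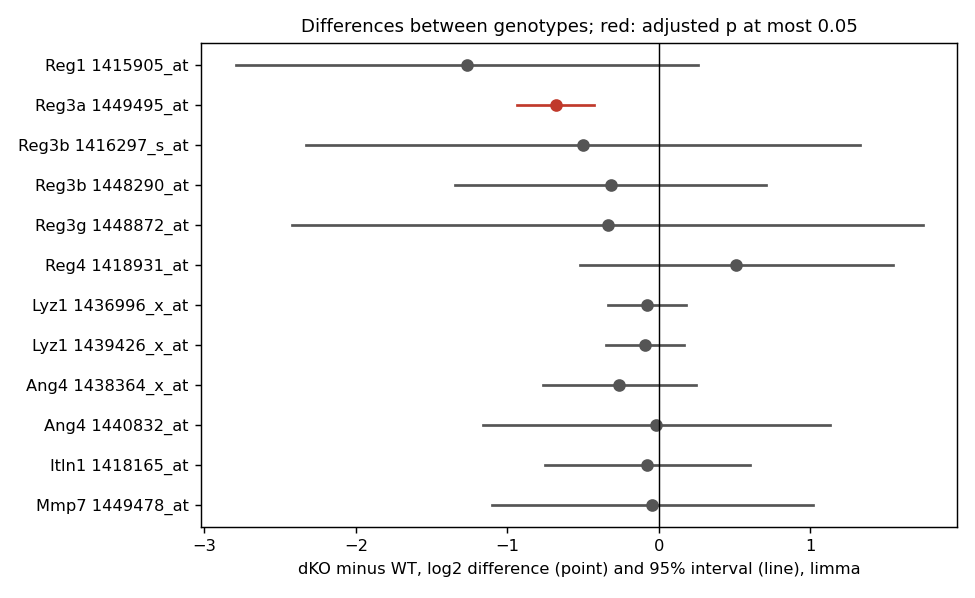
Difference between genotypes for each of the 12 bright member probe sets (horizontal axis, double knockout minus wild type, log2; points are limma estimates and lines 95% intervals). Only the Reg3a interval (-0.93 to -0.43) leaves out 0, and those of Reg3g (-2.42 to 1.75) and of Reg3b on 1416297_s_at (-2.33 to 1.33) are the widest.

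Reg3g and Reg3b varied several-fold between mice of the same genotype. Reg3g (1448872_at) had levels of 13.19, 10.77 and 10.96 in double knockout mice 1, 2 and 3, against 10.88, 11.49 and 13.55 in wild type mice 1, 3 and 4. One mouse of each genotype, double knockout mouse 1 and wild type mouse 4, stood far above the rest. The distance from the lowest to the highest mouse was 5.36-fold within the double knockout group and 6.38-fold within wild type. The genotype difference was -0.34 ± 0.87 on the log2 scale, and its interval of -2.42 to 1.75 leaves room for a large change either way (limma adjusted p = 0.828).

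Reg3b, whose product is known for action on Gram-negative bacteria, was read by a pair of probe sets with the same picture. On 1448290_at it had 13.28, 12.16 and 12.44 in double knockout mice 1, 2 and 3, against 12.15, 13.03 and 13.64 in wild type mice 1, 3 and 4. On 1416297_s_at it had 13.30, 11.15 and 11.54 in double knockout, against 11.24, 12.49 and 13.76 in wild type. Both probe sets ordered the mice alike, with double knockout mouse 1 and wild type mouse 4 highest. The differences were -0.32 ± 0.43 and -0.50 ± 0.77 (limma adjusted p = 0.663 and 0.701).

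The direction of these 3 differences depended on single mice. Without wild type mouse 4, Reg3g stood at 0.45 and Reg3b at 0.03 and 0.13, and without double knockout mouse 1 at -1.11, -0.64 and -1.15. Reg3g also turned positive without double knockout mouse 2 (0.10), while without double knockout mouse 3 it was at 0.0018. The within-group SD of Reg3g, 1.37, was above that of 99.9% of all tested probe sets, and those of Reg3b (0.67 and 1.21) above 98.5% and 99.7%. Of the 12 member probe sets, 7 were among the 5% with the largest within-group SD, and the 3 below the median were Reg3a and both bright Lyz1 probe sets.

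Reg4, a more distant family member known from enteroendocrine and other secretory cells, was the only member with a positive difference. It had levels of 9.76, 11.11 and 9.92 in double knockout mice 1, 2 and 3, against 10.35, 9.76 and 9.14 in wild type mice 1, 3 and 4. The groups overlapped, with double knockout mouse 2 highest and wild type mouse 4 lowest. The difference was 0.51 ± 0.43 (interval -0.52 to 1.54, limma adjusted p = 0.477). It ran from 0.09 without double knockout mouse 2 to 0.81 without wild type mouse 1.

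The Paneth cell genes were bright in every mouse and did not pass between genotypes. Lyz1, the lysozyme of Paneth cell granules, had 13.90, 14.07 and 13.85 in double knockout mice 1, 2 and 3, against 14.13, 14.09 and 13.88 in wild type mice 1, 3 and 4 on 1439426_x_at. Its difference was -0.09 ± 0.11 (interval -0.35 to 0.17, limma adjusted p = 0.623), and on 1436996_x_at it was -0.08 ± 0.11 (limma adjusted p = 0.664). These levels are near the top of the scale, whose highest probe set lay between 14.13 and 14.22 on each array, and whether the scale is compressed there was not tested. The remaining Lyz1 probe set, 1450822_at, lay between 1.40 and 2.35 on all 6 arrays and was not tested.

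Ang4, a bactericidal ribonuclease, had 11.11, 11.84 and 10.38 in double knockout mice 1, 2 and 3, against 11.92, 11.07 and 10.38 in wild type mice 1, 3 and 4 on 1440832_at. The ranges nearly coincided, and the difference was -0.02 ± 0.48 (limma adjusted p = 0.988). On its brighter probe set, 1438364_x_at, it was -0.26 ± 0.21 (limma adjusted p = 0.462). Itln1, a lectin that binds microbial sugars, had 12.74, 13.11 and 12.48 in double knockout and 13.30, 12.98 and 12.27 in wild type mice, a difference of -0.07 ± 0.28 (interval -0.75 to 0.60, limma adjusted p = 0.888).

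Mmp7, the protease that activates alpha-defensins, had 9.37, 10.32 and 8.86 in double knockout mice 1, 2 and 3, against 10.18, 9.59 and 8.90 in wild type mice 1, 3 and 4. Its groups covered almost the same range, and the difference was -0.04 ± 0.44 (interval -1.10 to 1.02, limma adjusted p = 0.960). A change of 2-fold in either direction lies within that interval, so the arrays do not show that Mmp7 is alike in both genotypes. Retnlb lay between 1.26 and 1.29 in double knockout and between 1.22 and 1.23 in wild type jejunum, far under the minimum of 4, and no fold is given. Probe sets ending in x_at hold, by the maker's naming, probes that also match other sequences, which concerns both bright Lyz1 probe sets and 1 of Ang4.

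Within each genotype the Paneth cell genes among the members followed the same mice. All 6 bright probe sets of Lyz1, Ang4, Itln1 and Mmp7 were highest in double knockout mouse 2 and lowest in double knockout mouse 3, and highest in wild type mouse 1 and lowest in wild type mouse 4. Reg4 shared the wild type order and had double knockout mouse 2 highest. The 5 probe sets of Reg1, Reg3a, Reg3b and Reg3g had the opposite order in wild type mice, with mouse 4 highest and mouse 1 lowest. In double knockout mice, Reg3b and Reg3g were highest in mouse 1 and lowest in mouse 2. These orders describe 6 animals and were noticed in their values, so they carry no test.

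**Figure D3:**
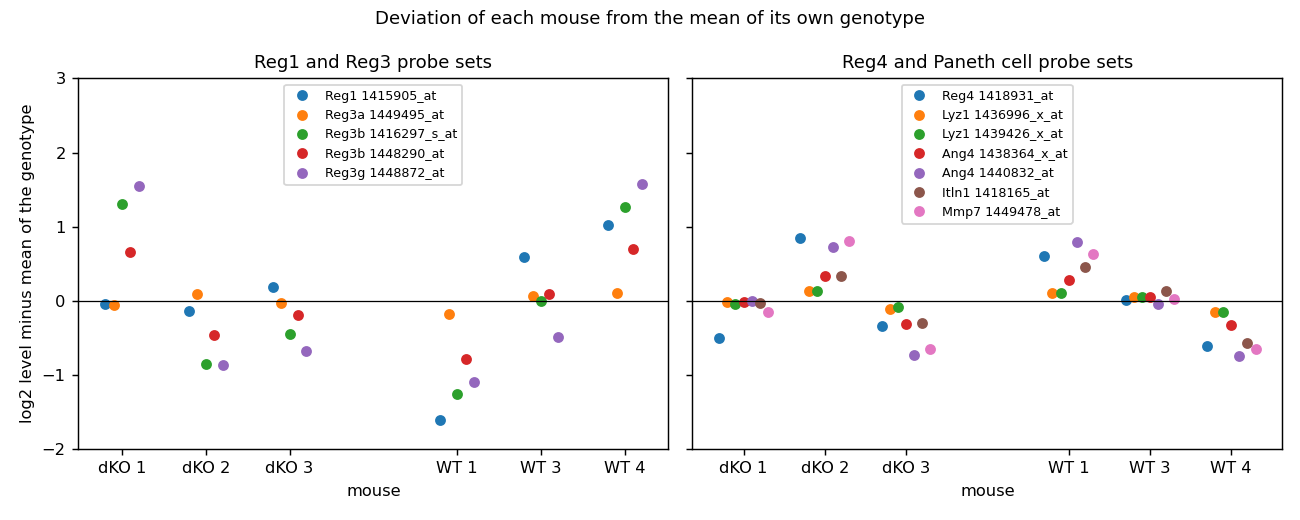
Level of each mouse minus the mean of its own genotype (vertical axis, log2) for Reg1 and Reg3 probe sets (left) and for Reg4, Lyz1, Ang4, Itln1 and Mmp7 (right), with 3 double knockout (dKO) mice left of 3 wild type (WT) mice in each panel. Reg3b and Reg3g stand high in dKO mouse 1 and WT mouse 4, and the Paneth cell genes in dKO mouse 2 and WT mouse 1.

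Goblet cell markers had the order of mice of the Paneth cell genes. The mean level of the 16 goblet cell markers was 9.75, 10.05 and 9.50 in double knockout mice 1, 2 and 3 and 9.97, 9.75 and 9.35 in wild type mice 1, 3 and 4, the same order of mice. That order was shared in both groups by 3 of the 19 lists with a measured mean: goblet cell markers, Paneth granule proteins and genes of Paneth cell specification and secretion. Single bright genes of the granule list differed: Defa39 and Mptx1 had wild type mouse 3 highest, and Pla2g2a had double knockout mouse 1 lowest. Of the 4 bright genes in that list, only Nupr1, a stress-response gene, had the order in both groups. Crypt stem cell markers and macrophage and neutrophil markers shared the wild type order of the Paneth cell genes. In these lists double knockout mouse 2 was also highest. Enteroendocrine markers had double knockout mouse 2 and wild type mouse 1 highest, and tuft cell markers shared the double knockout order only. Lyz2, the lysozyme of macrophages and a close relative of Lyz1, had 11.08, 11.43 and 10.85 in double knockout mice. In wild type mice it had 11.58, 11.27 and 10.85, again the order of the Paneth cell genes. Its part in the Lyz1 values, and that of the share of crypt in each piece of tissue, was not tested. The mean of macrophage and neutrophil markers (8 of 16 bright; Cd68, Itgam, S100a8, S100a9, Mpo, Elane and Fcgr1 under 4 throughout) ran from 6.69 to 7.79 in double knockout and from 6.43 to 7.07 in wild type mice.

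The probe sets most like a member across the 6 arrays were found for Reg3g and Lyz1, leaving out other probe sets of the same gene. For Reg3g they were Rspry1 (Pearson's r = 0.993), Bmpr1a, Rbm18, Dedd and Larp4 (r = 0.985). Among all named probe sets, Reg3b had rank 11 on 1416297_s_at (0.969) and rank 38 on 1448290_at (0.935). For Lyz1 (1439426_x_at), whose other bright probe set stood at 0.990, they were Kitl (0.985), Lbh, Slc38a10, Egfl7 and Ermard (0.973), followed closely by Ang4 on its brighter probe set (0.969). These values describe 6 arrays that share 1 normalization, and with 18013 probe sets to choose from, values this high need no relation between the genes. None of the 10 genes passed between genotypes.

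Relatives and partners of these genes were looked at through 9 lists. Of their 58 bright genes, 0 rose and 0 fell over all genes tested by limma against 4.47% called over all tested probe sets, with a median log2 difference of 0.02 beside 0.03 over all tested probe sets. An unadjusted p under 0.05 was found for 7 of the 58 (12.1%) and for 27.1% of all tested probe sets. Reg2 and Reg3d, the other Reg genes measured, were under 4 on all arrays. Among alpha-defensins and other Paneth granule proteins, 8 of 56 listed genes had a named probe set, and 4 genes were bright. Of these, the alpha-defensin Defa39 stood at -0.05 ± 0.16, Mptx1, a mucosal pentraxin, at -0.07 ± 0.61, and Pla2g2a, a secreted phospholipase, at 0.61 ± 0.55. Nupr1, a stress-response gene, stood at -0.65 ± 0.43 (limma adjusted p = 0.366).

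In Paneth cell specification and secretion, 0 of 13 bright genes passed. Differences were positive for 9 of them and negative for 4, with a median of 0.10. The Wnt receptor Fzd5, which Paneth cells need to mature, stood just short of the threshold at -0.48 ± 0.10 (limma adjusted p = 0.0526), and the autophagy gene Atg16l1 at 0.38 ± 0.15 (0.168). Fzd5 had 10.39 in double knockout and 10.88 in wild type jejunum as group means. In the interleukin-22 and Stat3 axis 0 of 12 passed, with the receptor subunits Il6st at 0.44 ± 0.14 and Il10rb at -0.14 ± 0.09. The cytokine genes Il17a, Il23a and Il6 were under 4 on all arrays.

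In the Toll-like receptor and Myd88 axis 0 of 11 passed, 10 of them with positive differences and a median of 0.12. The inhibitor of NF-kappaB Nfkbia stood at 0.44 ± 0.13 and the NF-kappaB subunit Rela at 0.23 ± 0.10 (limma adjusted p = 0.0947 and 0.187). Tlr2, Tlr4, Tlr5, Tlr9, Il1b and Tnf were under 4 on all arrays. In the type 2 cytokine axis, known to drive Retnlb, 12 of 17 measured genes were under 4 on all arrays, Il4, Il13 and Il25 among them, and 0 of 5 bright genes passed (Stat6 at 0.18 ± 0.09, Il33 at 0.23 ± 0.16).

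In the list of other epithelial antimicrobial genes, which also holds the retinol-handling enzyme Retsat, 0 of 7 bright genes passed. Retsat stood at -0.43 ± 0.17 and the chemokine Ccl28 at 0.34 ± 0.24. Lcn2, Saa1, S100a8, S100a9 and Nos2 were under 4 on all arrays. Among the angiogenin relatives of Ang4, 3 of 3 bright genes had negative differences and 0 passed, with Ang at -0.48 ± 0.13 (limma adjusted p = 0.0801) and Rnase1 at -0.77 ± 0.39. Of the lysozyme, intelectin and resistin relatives, 0 of 3 passed, with Retn, the adipocyte hormone resistin, at 1.58 ± 0.51 (limma adjusted p = 0.113) and Retnla at -0.39 ± 0.32. Retn lay near the minimum of 4 in wild type mice 1, 3 and 4 (4.35, 4.80 and 2.98). It had 4.95, 5.81 and 6.13 in double knockout mice 1, 2 and 3.

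Markers of further cell types and of the ileum were as follows. Goblet cell markers had 9 positive and 7 negative differences among 16 bright genes, median 0.09, and 0 passed (Klk1 at -0.55 ± 0.16, Agr2 at 0.60 ± 0.25). Enteroendocrine markers had 8 positive and 4 negative differences among 12 bright genes, median 0.10, and 0 passed. Nts (-0.47 ± 0.17) and Gip (-0.29 ± 0.11) were among the 4 negative ones. Crypt stem cell markers had 9 of 11 positive, median 0.19, and 0 passed (Ascl2 at 0.81 ± 0.19, Rnf43 at -0.57 ± 0.16). Of 5 bright tuft cell markers 1, Rgs13, fell (6.14 in double knockout and 7.14 in wild type as group means, limma adjusted p = 0.0321) and of 7 bright ileum markers 1, Cubn (-0.78 ± 0.10, limma adjusted p = 0.0186), against 4.47% over all tested probe sets. The count of lower tuft cell markers was 0 when mouse number was a block, with the 3′ minus 5′ covariate and in 5 of 6 fits that left out a mouse, and so was that of lower ileum and of lower enterocyte markers. Of 7 bright plasma and B cell genes, 0 passed.

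**Figure D4:**
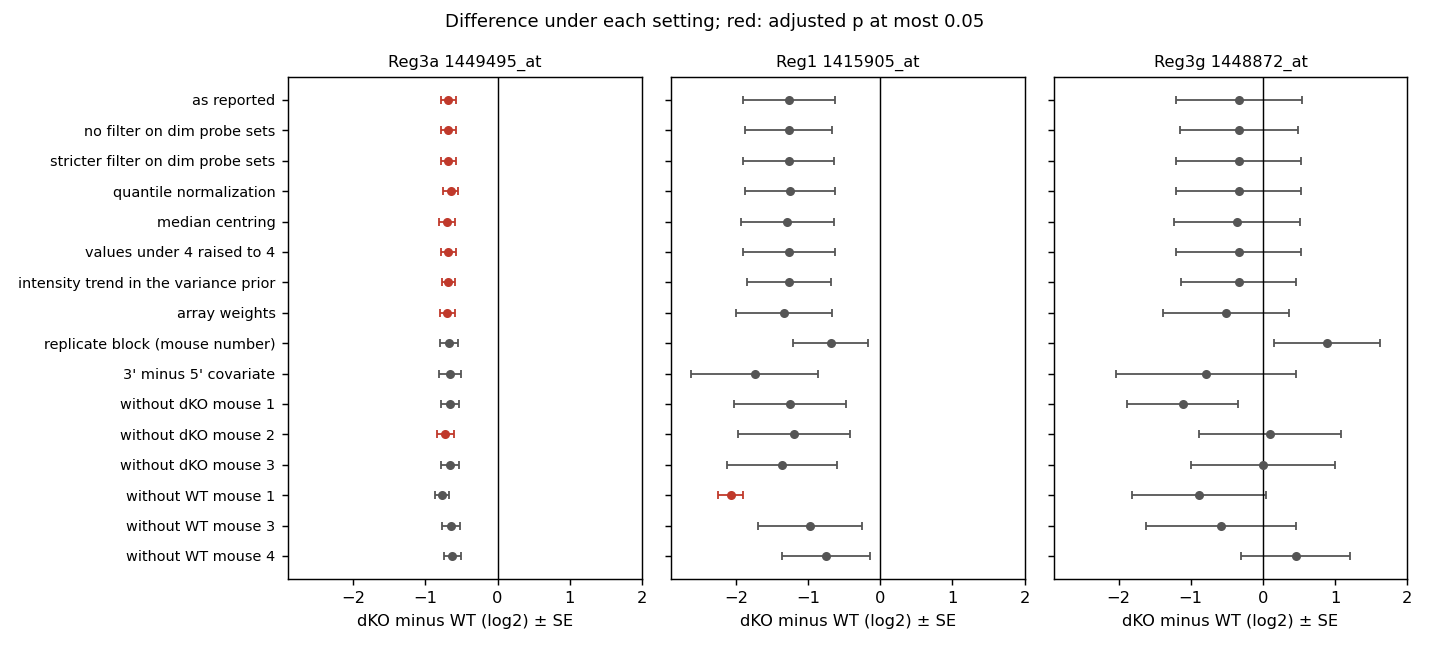
Difference between double knockout and wild type jejunum (horizontal axis, log2, points ± SE) for Reg3a, Reg1 and Reg3g under the fit as reported and 15 alternatives (rows), with red for a limma adjusted p of at most 0.05. Reg3a stays between -0.77 and -0.63 throughout while its call comes and goes, and Reg3g lies on either side of 0.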

How the data were processed

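RNA of 6 jejuna, 1 mouse and 1 array each, was compared between 3 double knockout and 3 wild type mice. The deposited values are log2 levels per probe set, made by the authors; the submitters' processing notes name GCRMA 2.18.0 and no further setting. That method estimates background from each probe's base composition, so levels near the bottom hold little information. The number of arrays limits the precision. The labels name separate mice.

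Gene names came from the platform annotation (34958 with 1 gene symbol, 932 with several, 9211 with none), with symbols updated from the GRCm38.p6 gene table. The 64 control probe sets were left out, and a level over 4 in 3 or more mice was required. The genotype difference was fitted by limma 3.58.1 (R 4.3.3; lmFit and eBayes without trend or covariates), two-sided, with Benjamini-Hochberg adjustment over 18013 probe sets and a threshold of 0.05; the fit was tested on simulated data. Members and lists were chosen with earlier results of these data known. For lists (20, with 243 of 328 symbols matched) the brightest probe set per gene was used, and no set test was run. Named genes were all member probe sets, the targeted genes, up to 6 passing genes per list or otherwise the 2 with the smallest p, and the 5 probe sets most correlated with Reg3g and with Lyz1; other genes named (dim genes and relatives such as Lyz2, Defa39 and Mptx1) were picked after their values were seen. Alternatives covered the filter, normalization, a floor at 4, variance prior, array weights, mouse number as a block, a 3′ minus 5′ covariate and leaving out each mouse. Promoter windows are RefSeq's. Figures were drawn with matplotlib 3.10.9.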

Additional observations from a re-analysis of the deposited data

How the results depend on the processing

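Of 180 recomputed member differences (12 probe sets, 15 alternatives), 152 kept their direction and their side of the threshold, 7 were Reg3a losing its call, 1 was Reg1 gaining one and 20 changed sign, none of the last past the threshold in either fit. The number of all probe sets higher and lower in double knockout was 458 and 347 as reported. It was 265 and 207 without the filter, 710 higher with a stricter filter (506 lower), 918 and 727 with an intensity trend, 2 and 11 with the mouse number as a replicate block, 5 and 12 with the 3′ minus 5′ covariate, and between 11 and 196 and between 21 and 239 with 1 mouse left out. The number of member probe sets that fell was 1 as reported, 0 with the block, 0 with the covariate and 0 to 1 with 1 mouse left out, and no member rose under any alternative run. Related genes, 0 and 0 as reported, had 1 higher with the intensity trend, 1 lower with the stricter filter, the floor at 4 or array weights, 2 lower with the trend, and 0 to 1 lower with 1 mouse left out. The cause was not tested.

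Numbers 1 and 3 are shared by both groups, but no label says what a number marks. The deviations of same-numbered mice correlated at 0.02 and 0.30 over probe sets, and with 2 pairs this does not settle whether the numbers mark a shared litter, batch or day; the fit as reported treats the mice as unpaired. Under the replicate block Reg3a stood at -0.67 ± 0.13 (limma adjusted p = 0.160), and signs turned for Reg3b (0.56 on 1416297_s_at and 0.26 on 1448290_at), Reg3g (0.89) and Reg4 (-0.21). With the covariate signs turned for Ang4 on 1440832_at (0.59), Itln1 (0.14) and Mmp7 (0.57), and with quantile normalization for Ang4 on 1440832_at (0.0046). Leaving out 1 mouse gave ranges that cross 0 for Reg3b (-1.15 to 0.13 on 1416297_s_at, -0.71 to 0.0322 on 1448290_at), Reg3g (-1.11 to 0.45), Ang4 on 1440832_at (-0.39 to 0.38), Itln1 (-0.36 to 0.15) and Mmp7 (-0.44 to 0.28). Lyz1 levels close to the top of the scale, and Retnlb and the dim Lyz1 probe set under 4, limit what these arrays can show for those genes.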

Other observations

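The alpha-defensin Defa31, chosen after its values were seen, was under 4 in all 3 double knockout mice (3.19, 3.13 and 2.78 in mice 1, 2 and 3) and in wild type mouse 3 (2.86), and stood at 13.33 in wild type mouse 1 and 8.20 in wild type mouse 4. It passed the minimum on 2 of 6 arrays and was not tested. Its probe set ends in x_at, and alpha-defensins are a family of near-identical genes, so which family member gave the signal is uncertain. Defa39 stood between 13.38 and 13.82 in double knockout and between 13.36 and 13.77 in wild type mice.

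Mptx1, a mucosal pentraxin of the small intestine, had levels of 9.60, 10.39 and 8.07 in double knockout mice 1, 2 and 3 and 9.74, 9.85 and 8.65 in wild type mice 1, 3 and 4. Its within-group SD was above that of 99.5% of tested probe sets. As with Lyz1, Ang4, Itln1 and Mmp7, double knockout mouse 2 was highest and double knockout mouse 3 lowest, and wild type mouse 4 was the lowest wild type mouse. Unlike in those genes, the highest wild type mouse was mouse 3 and not mouse 1. The mean of the plasma and B cell markers was 8.80 in double knockout mouse 1 and 7.44 and 7.13 in the other two, and 8.74, 6.72 and 8.41 in wild type mice 1, 3 and 4.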
